A study of Homo sapiens with 6 samples.

Results

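YAP1 and WWTR1 (the gene of TAZ), the transcription factor genes TEAD1 and TEAD4, and 6 of their commonly used target genes (CTGF, CYR61, ANKRD1, AMOTL2, LATS2 and AXL) were followed across 6 one-colour arrays. They were picked by symbol: each of the 10 genes had at least 1 probe carrying that symbol alone, 14 probes in all, out of 18365 genes with such a probe. The arrays hold CTGF and CYR61 under the older names of CCN2 and CCN1. The 6 populations all derive from A549, an established human lung adenocarcinoma line, and the labels call them HM20, a name they do not explain. A stable clone expressing SFRP1, SFRP2, SFRP3, SFRP4 or SFRP5 (secreted Frizzled-related proteins, extracellular modulators of Wnt signalling) was compared with an HM20 mock population, and all 6, mock included, had been kept in Wnt3a-containing medium for 24 hours. Each population was measured once, so no value has a replicate, differences between a clone and mock cannot be separated from differences between any pair of clones, and all comparisons share 1 mock array.

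YAP1 and TAZ are transcriptional coactivators that shuttle between cytoplasm and nucleus. The Hippo kinases, with LATS1 and LATS2 as the last step, phosphorylate them and hold them out of the nucleus. In the nucleus they bind TEAD factors, which bring them to target genes. Among these targets CTGF and CYR61 encode secreted matricellular proteins, ANKRD1 a nuclear and sarcomeric ankyrin-repeat protein, AXL a receptor tyrosine kinase, and AMOTL2 and LATS2 encode inhibitors of YAP and TAZ that act as negative feedback. Activity of YAP1 and TAZ is set largely after translation, so their transcript levels do not measure it. Wnt signalling and TAZ are known to be linked through the beta-catenin destruction complex.

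TEAD factors recognise GGAATG, or CATTCC when read on the other strand. Both spellings were searched in the 250 bases before each annotated transcript start (RefSeq promoter table, GRCh38.p14), where 7 of the 10 genes had 1 or more windows, 10 windows in all. At least 1 match stood in 5 of these windows, each of a different gene: YAP1, CTGF, ANKRD1, AMOTL2 and AXL. CYR61, TEAD1 and TEAD4 had no window and were not searched. Of all 35116 windows in the table, 11.9% held a match. The windows of CTGF, ANKRD1 and the downstream start of AXL are printed because CTGF and AXL gave different patterns over the arrays and ANKRD1 was barely detected. Each is 5′ to 3′ on the strand of the gene, with TEAD matches in capitals.
CTGF (chr6:131951373-131951622, minus strand): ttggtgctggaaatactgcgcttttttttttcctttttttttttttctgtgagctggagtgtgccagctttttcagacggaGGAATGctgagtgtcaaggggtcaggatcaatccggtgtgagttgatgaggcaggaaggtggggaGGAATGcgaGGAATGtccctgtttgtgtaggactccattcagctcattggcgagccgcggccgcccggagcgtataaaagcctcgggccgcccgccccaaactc
ANKRD1 (chr10:90921088-90921337, minus strand): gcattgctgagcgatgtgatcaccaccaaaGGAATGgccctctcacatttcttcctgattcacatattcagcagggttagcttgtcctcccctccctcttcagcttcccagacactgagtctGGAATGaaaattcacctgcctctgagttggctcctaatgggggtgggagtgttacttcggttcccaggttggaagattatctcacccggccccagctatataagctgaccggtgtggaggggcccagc
AXL (chr19:41226505-41226754, plus strand): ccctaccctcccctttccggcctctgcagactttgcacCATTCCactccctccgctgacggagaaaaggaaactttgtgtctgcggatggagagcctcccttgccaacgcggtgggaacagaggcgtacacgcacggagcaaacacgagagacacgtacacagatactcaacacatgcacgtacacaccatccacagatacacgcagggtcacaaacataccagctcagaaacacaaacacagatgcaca
The CTGF window held 3 matches, beginning 169, 104 and 95 bases before the start, and 3 or more matches were found in 0.0826% of all windows. The ANKRD1 window held 2 matches, 220 and 128 bases before the start, together with a match to the AP-1 motif TGANTCA at 195, a motif found in 6.57% of all windows. The AXL window held 1 match, at 212 bases. A match is a run of letters and does not show binding, and no binding was measured here.

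Before the members are described, the labels were checked. The probes of SFRP2, SFRP4 and SFRP5 read 58.1, 53.3 and 44.5 in the clones labelled with those genes, below the 10th percentile of each of these arrays, and on the brighter FRZB (SFRP3) probe the SFRP3-labelled clone stood at -0.12 against mock. On the dimmer FRZB probe that clone was the highest array, at 347.5 against 256.6 in mock (0.44). The SFRP1 probe was bright on all 6 arrays, mock included (58836). It read 88063 in the clone labelled SFRP1, only 0.58 above mock, 110461 in the clone labelled SFRP3 and 37206 in the clone labelled SFRP4. Where these probes lie relative to the expressed inserts is not known here, so clones are named by label only. Of 5 epithelial markers found, KRT8, KRT19, CDH1 and KRT7 passed the filter on dim probes described below and EPCAM (248.7 to 419.5) did not. The 4 kept markers were uneven over the arrays: their median was -1.65 against mock in SFRP1 and -1.92 in SFRP4, KRT19 was at -3.33 and -3.56 there, and in SFRP1 all 4 lay below the table's median intensity. Markers of other cell types were mixed. The blood marker PTPRC lay below the 10th percentile on all 6 arrays and CD3E on 1, while CD14 read 1464 to 2225. Of 5 fibroblast markers, COL1A1 (2066 to 3640), PDGFRA (310.3 to 1495) and LUM (287.6 to 721.5) passed the filter, and COL1A2 and DCN, at 51.3 to 154.7, did not. Of 3 endothelial markers, VWF (541.9 to 709.6) and PECAM1 passed and CDH5 (225.1 to 488.5) did not. PECAM1 read 4134 in mock and 527.2 to 718.1 in the clones, a mean difference of -2.66 ± 0.18 (SD over 5 clones). Any part of these differences in the results below was not tested. The SFRP4 array held 22 values below 0 and the other arrays none.

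Levels are given as intensity on the scale of the deposited table, whose array medians lay between 599.6 and 689.0 and whose 10th percentiles lay between 53.2 and 91.0. Differences are clone minus mock on the log2(intensity + 1) scale, so that 1 unit is 2-fold. Intensities of different probes are not comparable with each other as transcript amounts.

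**Figure D1:**
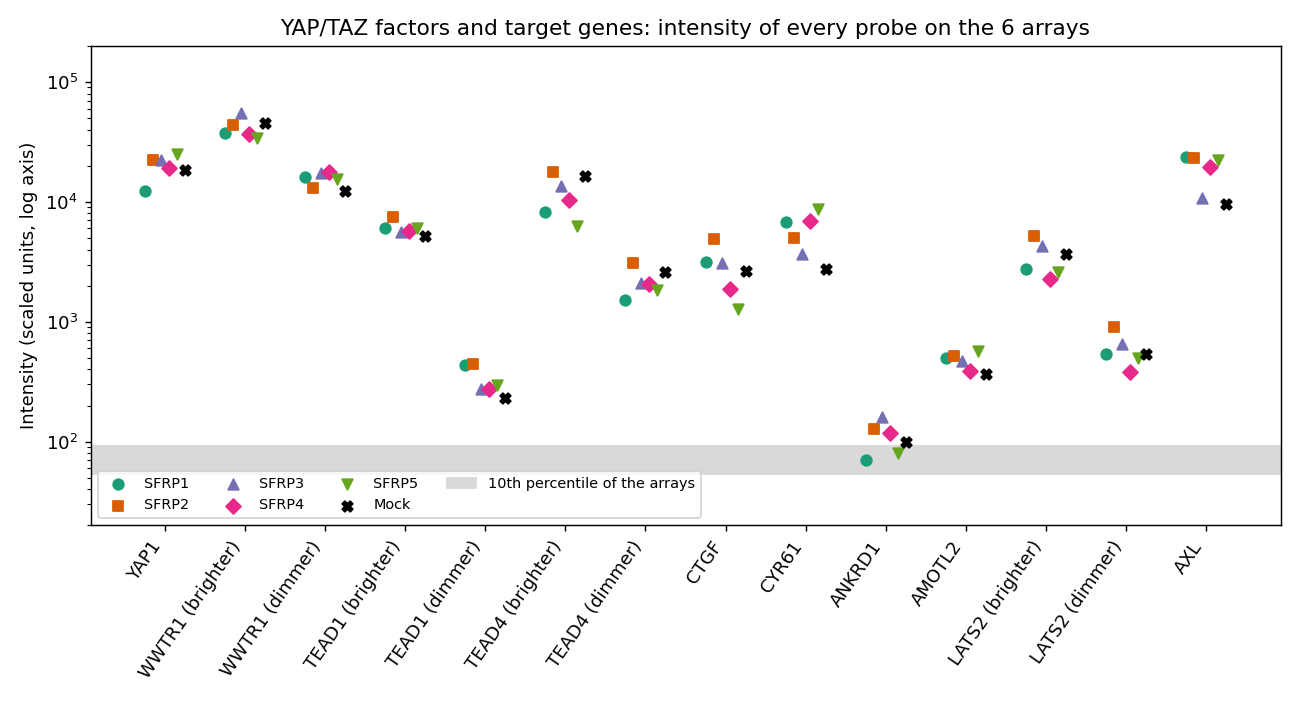
Intensity (log axis) of all 14 probes of the 10 genes on the 6 arrays, with 1 symbol per array and the range of the arrays' 10th percentiles in grey. The ANKRD1 probe sits at or just above the grey band. CYR61, AXL, AMOTL2, the TEAD1 probes and the dimmer WWTR1 probe have their lowest value on the mock array.

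The coactivator genes were bright on every array, and neither reached 2-fold from mock in any clone. The YAP1 probe read 24948 in SFRP5, 22451 in SFRP2, 22314 in SFRP3, 19315 in SFRP4, 18381 in mock and 12359 in SFRP1. SFRP1 stood below mock, by -0.57, and SFRP5 was the highest, 0.44 above mock and 2.02-fold above SFRP1. The SFRP4 value of 0.07 turned to -0.05 with median centring. WWTR1 had a pair of probes that disagreed. The brighter one read 55031 in SFRP3, 45165 in mock, 44094 in SFRP2, 37578 in SFRP1, 36532 in SFRP4 and 34113 in SFRP5. SFRP3 was the one clone above mock, with differences from -0.40 to 0.29 over the clones, and the SFRP2 value of -0.03 turned to 0.08 with quantile normalization. The dimmer one read 17612 in SFRP4, 17256 in SFRP3, 16057 in SFRP1, 15603 in SFRP5, 13109 in SFRP2 and 12277 in mock, and thus lay above mock in 5 of 5 clones, by 0.09 to 0.52. Both WWTR1 probes had the same sign in 1 clone of 5, SFRP3, so no direction can be given for TAZ in the others.

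The TEAD genes went separate ways. TEAD1, a broadly expressed member of the family, read 7496 in SFRP2, 6111 in SFRP5, 6074 in SFRP1, 5678 in SFRP4, 5637 in SFRP3 and 5157 in mock. Mock was the lowest array and SFRP2 the highest, and the dimmer probe (233.1 in mock, 447.7 in SFRP2) had the same sign in 5 of 5 clones, with differences from 0.23 to 0.94. TEAD4, another family member that binds YAP1 and TAZ, read 17872 in SFRP2, 16297 in mock, 13584 in SFRP3 and 10457 in SFRP4, down to 8308 in SFRP1 and 6300 in SFRP5. It was close to mock in SFRP2 (0.13) and below it in the other 4 clones, down to -1.37 in SFRP5 (a level 2.59-fold lower). The dimmer TEAD4 probe had the same sign in 5 of 5 clones, although it placed the lowest value in SFRP1 (-0.76) and gave -0.50 in SFRP5. The 2-fold difference in SFRP5 therefore stood on the brighter probe alone.

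CTGF and CYR61, a pair of targets often read together as the signature of YAP and TAZ activity, did not follow each other. The CTGF probe read 4933 in SFRP2, 3162 in SFRP1, 3071 in SFRP3, 2634 in mock, 1887 in SFRP4 and 1274 in SFRP5. Mock lay in the middle of this order, SFRP2 was 0.90 above it and SFRP5 1 log2 unit below (-1.05), and the whole range was 3.87-fold, the widest among the members. CYR61 read 8746 in SFRP5, 6872 in SFRP4, 6827 in SFRP1, 5020 in SFRP2, 3692 in SFRP3 and 2737 in mock. Every clone stood above mock, from 0.43 in SFRP3 to 1.68 in SFRP5, a 3.19-fold higher level. The clone with the lowest CTGF signal was thus the one with the highest CYR61 signal. Subtracting one change from the other cancels the scale factor of each array: CYR61 exceeded CTGF by 2.72 in SFRP5, 1.81 in SFRP4 and 1.06 in SFRP1, against 0.21 in SFRP3 and -0.03 in SFRP2. Each gene had 1 probe, so neither pattern could be checked on a second one.

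**Figure D2:**
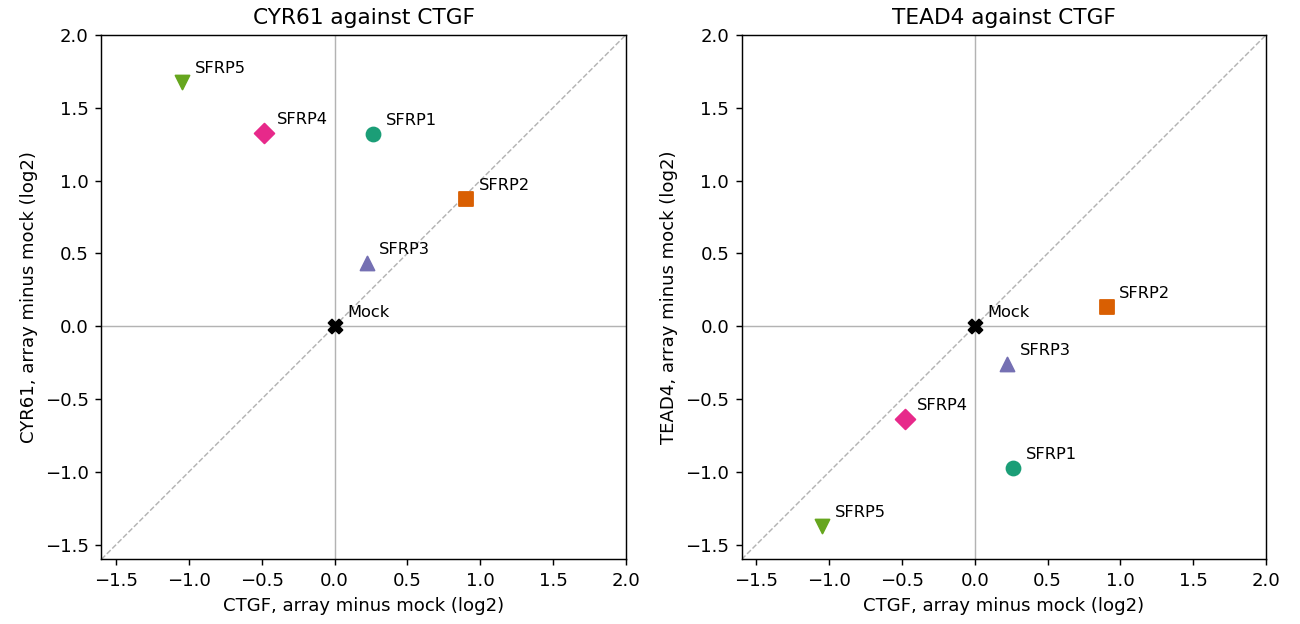
Array minus mock on the log2(intensity + 1) scale for CYR61 (left, y axis) and TEAD4 (right, y axis) against CTGF (x axis), 1 symbol per array with mock at 0 and the line of equal change dashed. SFRP5 combines the lowest CTGF value (-1.05) with the highest CYR61 value (1.68) and the lowest TEAD4 value (-1.37). SFRP2 has the highest CTGF (0.90) and TEAD4 (0.13) values. TEAD4 is drawn on its brighter probe. On the dimmer TEAD4 probe SFRP1 is lowest (-0.76), with SFRP5 at -0.50 and SFRP2 still highest (0.27).

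ANKRD1 was near the floor. Its probe read 159.5 in SFRP3, 127.2 in SFRP2, 117.5 in SFRP4, 99.6 in mock, 80.3 in SFRP5 and 70.5 in SFRP1, and the SFRP1 value lay below that array's 10th percentile. The differences, from -0.49 to 0.67, are those of dim readings and were not ordered further. With quantile normalization the SFRP1 difference went from -0.49 to -1.12.

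The negative feedback genes behaved differently from one another. AMOTL2, an angiomotin family gene whose product binds YAP1, read 565.3 in SFRP5, 514.5 in SFRP2, 502.2 in SFRP1, 474.0 in SFRP3, 385.3 in SFRP4 and 367.5 in mock. All 5 clones were nominally above mock, by at most 0.62, but the SFRP4 difference of 0.07 turned to -0.11 under quantile normalization and -0.05 under median centring. LATS2, the kinase gene, read 5179 in SFRP2, 4311 in SFRP3, 3700 in mock, 2742 in SFRP1, 2585 in SFRP5 and 2272 in SFRP4. SFRP2 and SFRP3 lay above mock (0.49 and 0.22) and SFRP4 was the lowest (-0.70). The dimmer LATS2 probe also put SFRP2 highest (912.2) and SFRP4 lowest (378.5), against 537.6 in mock, and had the same sign in 4 of 5 clones. In no clone did LATS2 reach 2-fold from mock, although SFRP2 exceeded SFRP4 by 2.28-fold on the brighter probe and 2.41-fold on the dimmer one.

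AXL, the receptor for GAS6, gave the clearest division among the arrays. It read 23883 in SFRP1, 23320 in SFRP2, 22163 in SFRP5 and 19445 in SFRP4, against 10791 in SFRP3 and 9614 in mock. The first 4 clones were 2-fold or more above mock (1.31, 1.28, 1.20 and 1.02), while SFRP3 was at 0.17. The gap of 0.85 between SFRP4 and SFRP3 was the widest between neighbouring arrays for any member. AXL had 1 probe, so this division could not be checked on a second one. The SFRP4 difference was 0.90 with median centring and so fell short of 2-fold there. Its value of 1.02 also lay within the disagreement between probes of a gene in SFRP4, whose 95th percentile was 1.49 (described below). Of the AXL relatives, TYRO3 differed from mock by -0.64 to -0.02 and MERTK by -0.04 to 0.41. The ligand gene GAS6 read 1878 in mock, 3520 in SFRP4 and 4161 in SFRP5, the last 1.15 above mock. In SFRP1, SFRP2 and SFRP3 it was near mock (0.13, 0.23 and -0.06).

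**Figure D3:**
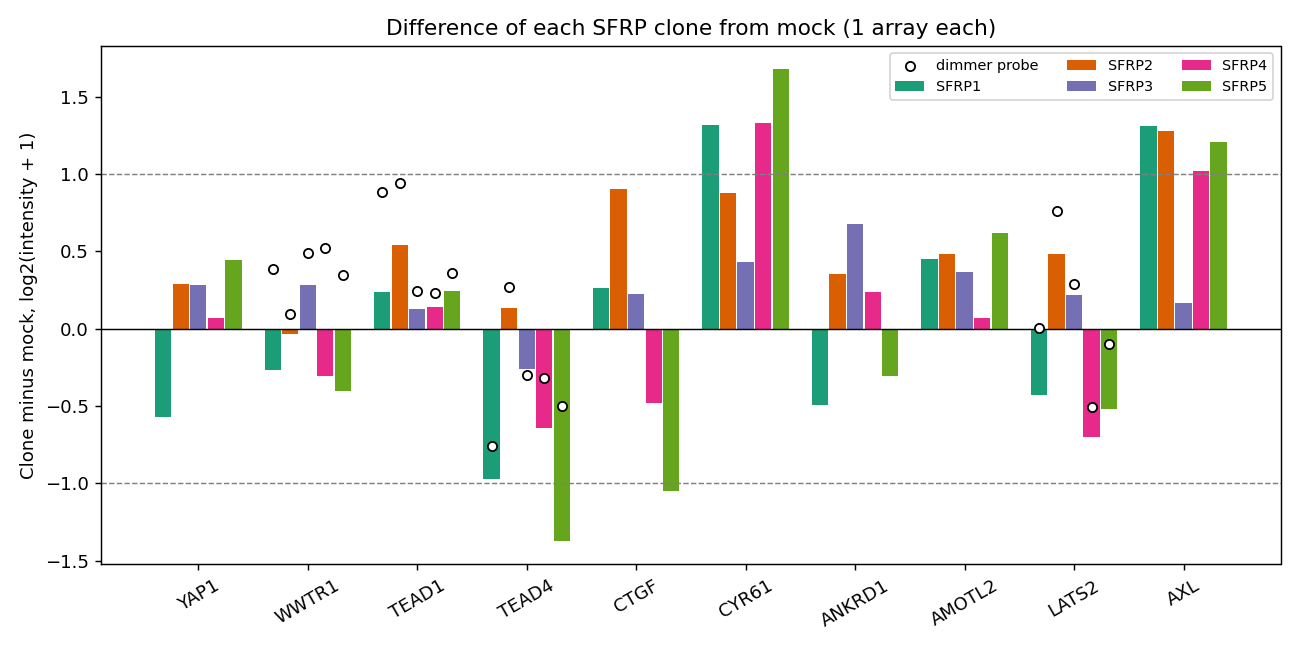
Clone minus mock on the log2(intensity + 1) scale for the brightest probe of each gene (bars, 1 array per clone, no error available) and for the dimmer probe where there is one (open circles), with 2-fold as dashed lines. TEAD1, CYR61, AMOTL2 and AXL have bars above 0 in all 5 clones, and TEAD4 and CTGF reach -1.37 and -1.05 in SFRP5. The WWTR1 bars and circles lie on opposite sides of 0 in 4 clones.

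The counts were read against all genes. The members and lists were chosen with earlier results of these data known. A count above the share of all genes is therefore a description and not a test of the members. The filter on dim probes kept genes whose brightest array reached the table's median intensity of 641.8, which left 11954 genes and 8 of the 10 members. AMOTL2 and ANKRD1 did not pass, and the other 8 were above that level on every array. With the SFRP clones taken as a set against mock, limma called 0 members at an adjusted p under 0.05, against 5 of 11954 genes (0.0418%). CYR61 had the lowest p of the members: its mean difference was 1.13 ± 0.48 (SD over 5 clones; limma unadjusted p = 0.0439, adjusted p = 1.00), higher in 5 of 5 clones. It was the 1 member with an unadjusted p under 0.05, against 2.18% of all genes. AXL differed by 1.00 ± 0.48 (limma unadjusted p = 0.0670, adjusted p = 1.00), also in 5 of 5 clones, and TEAD4 by -0.62 ± 0.59 (limma adjusted p = 1.00), lower in 4 of 5. Its residual variance comes from 5 clones that each carry another gene, and the lone mock sample is taken to have the same variance.

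In single clones there is no test. At least 2-fold from mock in SFRP1 were CYR61 and AXL, 2 of 10 members against 8.74% of all kept genes. In SFRP2 it was AXL alone, 1 of 10 against 6.69%, and in SFRP3 0 of 10 against 6.88%. SFRP4 had CYR61 and AXL, 2 of 10 against 13.5%. SFRP5 had the most, 4 of 10 against 12.5%, with CYR61 and AXL higher and CTGF and TEAD4 lower. Together 4 of 10 members (4 of the 8 kept) were 2-fold away in at least 1 clone, a property of 29.0% of the kept genes. Every member counted in a single clone was also among the 8 kept. The median over the 10 members stayed close to that of all kept genes in SFRP1 (-0.01 against 0.05), SFRP4 (0.07 against 0.06) and SFRP5 (-0.03 against 0.10), and was 0.48 against 0.08 in SFRP2 and 0.25 against 0.03 in SFRP3. TEAD1, CYR61, AMOTL2 and AXL were above mock in all 5 clones, and 3 of these belong to the 8 kept members, against 14.5% of all kept genes. No member was below mock in all 5, against 8.51%. A difference of 2-fold or more between the highest and the lowest array was found for 7 of 10 members (6 of the 8 kept), a property of 47.9% of the kept genes.

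With no replicates, the nearest measure of technical disagreement was that between probes of a gene. Over 2910 genes with at least 2 probes that passed the filter, the brighter pair differed in their clone minus mock value by a median of 0.15 in SFRP3 to 0.41 in SFRP4, and the 95th percentile was 1.04 in SFRP1, 0.84 in SFRP2, 0.74 in SFRP3, 1.49 in SFRP4 and 1.10 in SFRP5. Probes of a gene can also measure different transcripts, and this disagreement is not a replicate error. CYR61 and AXL lay beyond it in SFRP1 (as did 7.88% of kept genes), with CTGF in SFRP2 (9.71%) and with TEAD4 in SFRP5 (9.91%). No member lay beyond it in SFRP3 (12.9%) or SFRP4 (5.35%). When the 6 arrays were ordered by level for each member, 41 of the 50 neighbouring pairs were closer than 0.41, the largest of these medians. None of the 50 (0) was 2-fold apart, so most neighbours in these orders cannot be separated. A gap over 0.41 does not by itself separate a pair. The widest, 0.85 between SFRP4 and SFRP3 for AXL, was above the 95th percentile in SFRP3 (0.74) and below that in SFRP4 (1.49).

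A wider list of 22 YAP/TAZ target genes, which holds the 6 targets above, was then examined. All 22 were on the arrays and 16 were kept by the filter. In this list limma called 0 genes in the set of clones, and 1, CYR61, had an unadjusted p under 0.05. At least 2-fold from mock were 4 higher and 2 lower in SFRP1, 1 and 1 in SFRP2, 1 and 1 in SFRP3, 4 and 3 in SFRP4, and 3 and 3 in SFRP5, where the background was 4.41% and 4.33%, 2.80% and 3.89%, 3.73% and 3.15%, 5.97% and 7.51%, and 5.98% and 6.53%. The list's medians, from 0.01 in SFRP4 to 0.31 in SFRP1 and SFRP2, lay beside 0.03 to 0.10 over all kept genes. Single targets had opposite profiles. IGFBP3, an IGF-binding protein gene, read 14491 in SFRP1, 12751 in SFRP3, 10054 in SFRP4, 4652 in SFRP2, 3664 in mock and 3611 in SFRP5. SFRP1, SFRP3 and SFRP4 were high and SFRP5 was at the level of mock, and the dimmer IGFBP3 probe gave 2.13, 1.92 and 1.64 in the first 3 and 0.15 in SFRP5. F3, the gene of tissue factor, read 7462 in SFRP5, 4908 in mock, 3010 in SFRP3, 1950 in SFRP1, 1028 in SFRP4 and 860.5 in SFRP2, so that SFRP5 alone exceeded mock. FOXF2, a forkhead factor gene, was below mock in all 5 clones, from -1.72 in SFRP1 to -0.13 in SFRP3. The PTPN14 probe read 5.5 in SFRP4 and 2903 in mock. PTPN14 was one of the dim values of that array, and its difference of -8.81 has no reliable size. It is 1 of the 3 lower genes counted in SFRP4, and PTPN14 (-1.32) is also the 1 lower gene counted in SFRP3.

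**Figure D4:**
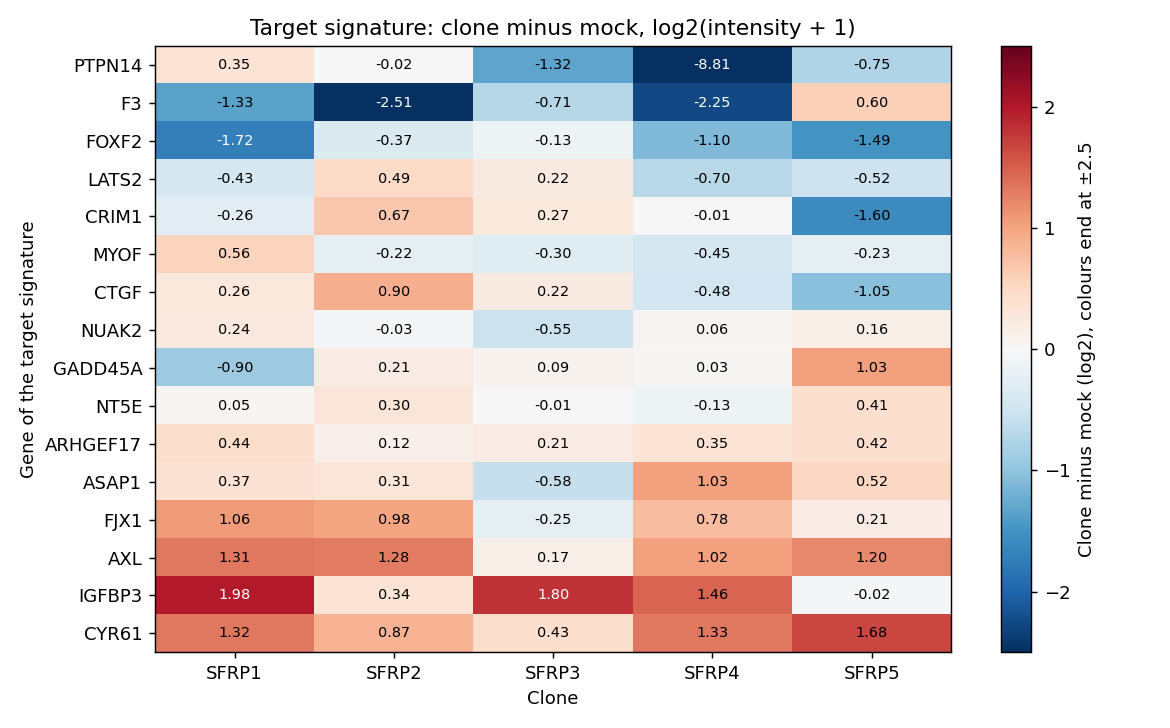
Clone minus mock on the log2(intensity + 1) scale (numbers and colours) for the 16 genes of the target list that passed the filter, ordered by their mean over the clones. CYR61, AXL and ARHGEF17 (0.12 to 0.44) are above 0 in all 5 clones and FOXF2 below 0 in all 5. The other genes change sign between clones, IGFBP3 only through -0.02 in SFRP5, where its dimmer probe is at 0.15.

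Upstream regulators were taken from a list of 17 Hippo pathway genes outside the members, 14 of them kept. PTPN14 is on this list and on the target list, so it enters the counts of both. In the set of clones limma called 0 genes of the Hippo list. The 1 gene with an unadjusted p under 0.05, WWC1, passed the filter only through SFRP1 and SFRP2, where it was high. Its p is therefore not used or counted against all kept genes, and its values are a description. WWC1 encodes KIBRA, a scaffold that activates LATS kinases. Its probe read 1358 in SFRP2, 1324 in SFRP1, 581.3 in SFRP3 and 532.9 in SFRP4, down to 403.6 in SFRP5 and 205.8 in mock, a mean difference of 1.85 ± 0.80 (SD over 5 clones). All 5 clones were above mock, and so were they on the dimmer probe (0.85 to 1.88). NF2 encodes merlin, which also promotes LATS activation. It read 26283 in mock, 17460 in SFRP3, 17161 in SFRP1, 15095 in SFRP4, 10398 in SFRP2 and 9705 in SFRP5, a mean difference of -0.96 ± 0.40 (SD over 5 clones; limma unadjusted p = 0.0567, adjusted p = 1.00). The other NF2 probes were also below mock in every clone, by -1.83 to -0.04 on the middle one and -1.79 to -0.83 on the dimmest. These KIBRA and merlin genes thus had opposite signs, each in all 5 clones against 1 mock array. The RASSF1 probe, of a gene whose product binds Hippo kinases, read 2.7 in SFRP4, 19.5 in SFRP5 and 47.0 in SFRP1, and 2408 to 5081 on the other 3 arrays, and its differences have no reliable size either. Over the 14 kept genes of the list, those at least 2-fold higher and lower than mock numbered 2 and 1 in SFRP1, 3 and 1 in SFRP2, 2 and 2 in SFRP3, 2 and 2 in SFRP4, and 1 and 2 in SFRP5. The shares of all kept genes for these 5 clones are those given for the target list. The counts include the unreliable RASSF1 and PTPN14 readings, and WWC1 is among the higher genes in SFRP1, SFRP2, SFRP3 and SFRP4. These counts are therefore a description, and nothing is concluded from setting them beside the shares.

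**Figure D5:**
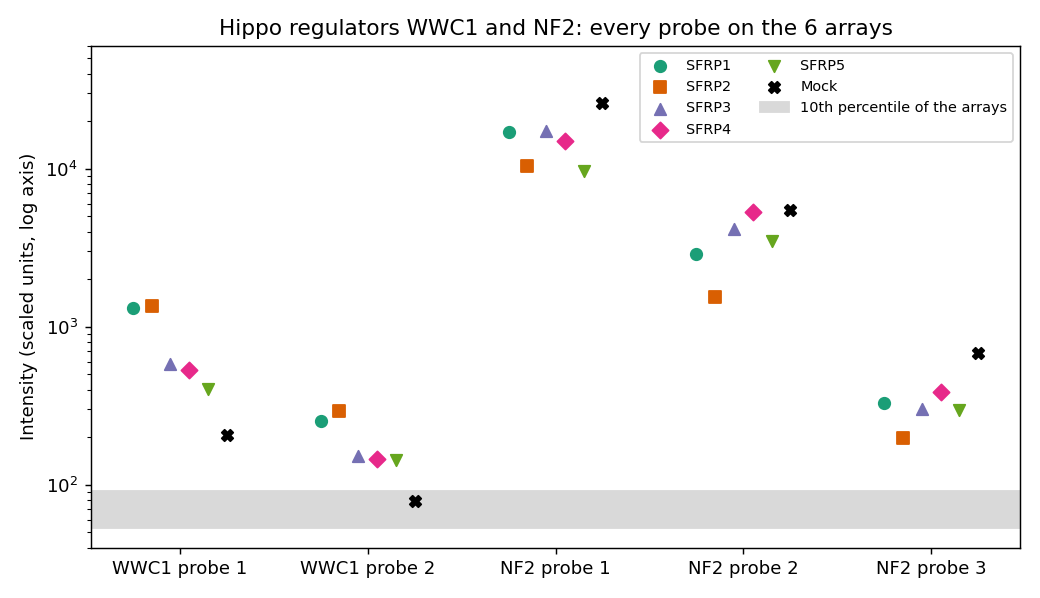
Intensity (log axis) of the WWC1 and NF2 probes on the 6 arrays, 1 symbol per array, with the range of the arrays' 10th percentiles in grey. Mock is the lowest array on both WWC1 probes and the highest on all 3 NF2 probes, and on the second NF2 probe SFRP4 is close to it.

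Of the other TEAD and cofactor genes, TEAD2 was the steadiest, at 16065 to 18049 over the 6 arrays, and TEAD3 was 1.32 above mock in SFRP4 and within 0.30 of it elsewhere. VGLL1, which competes with YAP for TEAD, differed by -0.02 to 0.91 and VGLL4, a repressor of TEAD, by -0.32 to 0.49. Genes of actin and its regulator SRF, which share many targets with YAP and TAZ, were read beside them. Of 10 kept genes limma called 0 (0 also at an unadjusted p under 0.05). FHL2, a LIM protein gene, was above mock in all 5 clones, from 0.24 in SFRP4 to 2.60 in SFRP5 (41471 against 6823 in mock), and FLNA, the filamin A gene, from 0.16 in SFRP2 to 1.41 in SFRP5. ACTA2 was -1.15 in SFRP1 and within 0.31 of mock elsewhere, and VCL, the vinculin gene, was lowest in SFRP1 and SFRP2 (-0.91 and -0.76). The 4 further CCN genes NOV, WISP1, WISP2 and WISP3 were too dim to pass the filter.

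Among the kept genes, the pattern most like CTGF over the 6 arrays was that of HSD17B10 (Pearson r = 0.99, n = 6 arrays), followed by FAM57A and CCDC22 (both 0.98). HSD17B10 varied far less than CTGF, by 0.48 log2 units between its highest and lowest array. The patterns most like YAP1 were those of ORC6, CD2BP2 and TFB2M (each 0.99, n = 6 arrays). All values share the same 6 arrays, and with so few arrays 24 genes for CTGF and 51 for YAP1 had an r over 0.95. Among the kept members, LATS2 (0.79) and TEAD4 (0.75), each on its brighter probe only, were closest to CTGF, and CYR61 stood at -0.49.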

How the data were processed

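Total RNA of the 6 populations was amplified and carried the dye Cy5 on one-colour arrays, per the labels' protocols. The deposited table holds intensity values of 31741 probes, scaled by the authors. On each array all values below 2000 were whole multiples of 1 factor (0.795 to 1.37, within 0.05 of a step). The sources used here name neither scanner software nor background correction. Negative values became 0, and log2 was computed after adding a pseudocount of 1. Probes were named through the platform annotation (24740 carry 1 symbol), the probe with the highest mean stood for a gene in fits and counts, and every member probe is reported. Groups came from the sample titles. The 5 clones as a set were compared with mock by a two-sided limma test (version 3.58.1, R 4.3.3) with lmFit, eBayes and 4 residual degrees of freedom, adjusted by Benjamini-Hochberg over 11954 genes at a threshold of 0.05, and the code was tested on simulated data. The number of arrays limits the precision. Alternatives were other scalings, filters, pseudocounts of 16 and 64, a floor at the 10th percentile, probe means, a variance trend and leaving out each clone. From each list, up to 4 further genes with the largest mean differences were named, and the text does not use every one. The members and lists were chosen with earlier results of these data known.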

Additional observations from a re-analysis of the deposited data

Results flagged for a closer look

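Over 14 member probes the 5 clones were screened for 1 clone lying far from the other 4, a screen that chance alone passes in about 1 of 20 groups, and 2 probes were picked out. On the AXL probe the SFRP3 clone, at 0.17 above mock, lay far below the other clones (1.02 to 1.31). On the brighter TEAD1 probe the SFRP2 clone, at 0.54 above mock, lay above the others (0.13 to 0.25). On the dimmer TEAD1 probe SFRP1 (0.89) lay next to SFRP2 (0.94).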

How the results depend on the processing

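Limma called 0 members under all 14 alternatives. The count of all genes called was 5 and moved to 2 with the stricter filter and to 2 with a mean-variance trend, and ranged from 2 to 6 when 1 clone was left out (3 without SFRP2, 3 without SFRP3, 2 without SFRP5, 6 without SFRP4). The count of members 2-fold from mock in SFRP4 was 2 and moved to 1 with median centring, where AXL was at 0.90. In SFRP1 the count went from 2 to 3 with quantile normalization, where ANKRD1 near the floor went from -0.49 to -1.12, and to 3 with median centring, where TEAD4 was at -1.09. In SFRP5 it went from 4 to 3 with probe means, where TEAD4 was at -0.94. Median centring lowered the median of all kept genes against mock by 0.05 to 0.21 log2 units, and quantile normalization by at most 0.06. Both scalings left 3 members above mock in all 5 clones (TEAD1, CYR61 and AXL), since AMOTL2 in SFRP4 changed sign. The mean difference of CYR61 stayed between 0.99 and 1.30 and that of AXL between 0.88 and 1.20 over all alternatives, each with limma adjusted p of 1.00 throughout. CTGF ran from -0.26 to 0.23, so it has no direction in the set. No paired analysis was possible because each population has 1 array and the labels give all of them the same replicate number. Depth is not defined for arrays, and ANKRD1 is limited by its signal near the floor.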
